A study of Mus musculus with 8 samples.

Results

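Cluster 2 is a group of cultured mouse fat-cell precursors and differentiating cells in which A2m and Serpina3n were detected in most cells. Its members were all entries that the authors' table of cluster genes holds for cluster 2, which came to 1133 of 13337 entries (8.5%) across 12 clusters numbered 0 to 11. An entry is a gene that passed the authors' filter for a cluster, in either direction. The symbols of 4 entries had been turned into dates by a spreadsheet. These were counted among the 1133 but left unnamed, so 1129 genes were compared between clusters.

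The study asked how the loss of HMGN1 and HMGN2, proteins that bind nucleosomes, changes the conversion of white fat cells towards brown-like ones. Preadipocytes were isolated from the inguinal white fat of C57BL/6 mice aged 8 to 12 weeks, either wild type (WT) or lacking both HMGN1 and HMGN2 (DKO), and were grown on plates coated with collagen. Single cells were sequenced on day 0, before induction, and on day 6, which gave 8 samples in 4 groups of 2, namely WT preadipocytes, DKO preadipocytes, WT day 6 and DKO day 6. All induced cultures, of both genotypes, received insulin, dexamethasone, IBMX, T3 and rosiglitazone for 4 days and then insulin and T3 alone. The cells were thus a culture model and not fat tissue as it is in the animal.

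The table gives values for each cluster over all samples together. A genotype or day therefore could not be compared within cluster 2, no replicate error could be computed, and every difference here is a description with no test. The clusters were themselves made from the expression of these genes, so a gene that sets a cluster apart is not independent evidence for it. The number of cells and their depth are not known from the table. No interval could be put on a detection value, and gaps of a few percentage points should not be read as differences.

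Preadipocytes are fibroblast-like cells of the fat's connective tissue. During adipogenesis they lose the stress fibres and smooth-muscle-type contractile proteins that cells gain on a rigid plate, rebuild their surrounding matrix from an interstitial towards a basement membrane type, and switch on proteins that take up, bind and store fatty acids. A2m encodes alpha-2-macroglobulin, a secreted protein that traps proteases. Serpina3n encodes a secreted inhibitor of serine proteases that belongs to the acute-phase response and is known to respond to glucocorticoids, the class of hormone to which dexamethasone belongs.

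The measure used throughout is the detection share, the percentage of a cluster's cells with at least 1 molecule of the gene counted. It is not a mean level, and the 2 can differ in direction for a gene found in nearly every cell. A2m (chromosome 6, 121635376 to 121679227, plus strand, mm10, protein-coding) was found in 82.4% of cluster 2 cells, against 15.8% of all other cells. The next highest detection share of A2m was 78.5%, in cluster 6, and clusters 11 and 4 followed with 46.0% and 32.5%. In clusters 0, 1, 3, 5, 7, 9 and 10 it lay between 0.4% and 1.7%. Cluster 8 had no entry for A2m, but the shares of cells solved from the table put its detection there at 59.9%. A2m was thus high in clusters 2 and 6, intermediate in clusters 8, 11 and 4, and near 0 elsewhere.

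Serpina3n (chromosome 12, 104406729 to 104414329, plus strand, mm10, protein-coding) was detected in 91.3% of cluster 2 cells and in 51.0% of the others. Clusters 8, 6 and 11 had shares of 90.2%, 89.7% and 82.0%. It was lower in clusters 1 (64.1%), 7 (57.8%), 4 (39.7%), 5 (36.7%), 9 (35.7%) and 0 (30.7%), and lowest in cluster 10 (6.9%). Serpina3n therefore did not set cluster 2 apart from clusters 6 and 8. Its paralogue Serpina3m was detected in 45.1% of cluster 2 cells and 7.8% of the others. Reads can be split between such near-identical family members, so the values of both are uncertain to that extent.

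The study names differentiating cells by Col5a3 and Serpina3n. Col5a3, which encodes a chain of type V collagen found in fat, was detected in 75.6% of cluster 2 cells and in 32.6% of the others, but its share was higher in cluster 8 (89.4%) and cluster 6 (83.1%). Since this name rests on a pair of markers that 3 clusters have in common, the cells are called cluster 2 here. The study's proliferation marker Mki67 was detected in 5.1% of cluster 2 cells and 25.4% of the others. Among its preadipocyte markers, F3 (tissue factor) was detected in 55.4% against 79.1% and Itgb1 (integrin beta 1) in 89.6% against 86.2%, and Mmp3 had no entry for cluster 2. The thermogenic markers Ucp1 and Cidea had no entry for any cluster, and Ppargc1a and Elovl3 had one for cluster 11 only. Of the 11 thermogenic genes looked up, 3 had an entry for some cluster and none for cluster 2. The missing entries were thus not particular to cluster 2. A missing entry means that the gene did not pass the authors' filter, not that it was absent.

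The promoter of Serpina3n is shown because this gene names the cluster and because dexamethasone was in the medium. The stretch covers 250 bases before to 50 bases after the RefSeq start, chr12:104406458-104406757 on the plus strand of GRCm38.p6, and capitals mark the letters AGAACA, which are part of the palindromic site of the glucocorticoid receptor. RefSeq promoters were found for 11 of the 20 leading genes of the cluster.
Serpina3n promoter: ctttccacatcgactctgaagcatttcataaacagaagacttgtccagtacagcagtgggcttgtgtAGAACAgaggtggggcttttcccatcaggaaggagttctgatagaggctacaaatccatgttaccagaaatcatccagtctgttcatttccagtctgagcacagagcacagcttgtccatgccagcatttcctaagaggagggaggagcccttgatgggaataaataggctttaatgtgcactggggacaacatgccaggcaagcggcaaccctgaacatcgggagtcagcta
On either strand, AGAACA was present in the promoters of 4 of the 11 leading genes and in 21.3% of 27025 genes with a promoter in the table. Among the genes detected more often in cluster 2 the share was 13.4% of 202 genes, and among those detected less often 14.1% of 298. The letters TTCNNNGAA, the core of sites bound by STAT factors, were present in 9.4% of the more often detected genes, 6% of the less often detected genes and 9.6% of all genes, and in 0 of the 11 leading genes. Neither motif was more frequent in the cluster's more often detected genes than in all promoters. Binding of the receptor or of STAT factors to these letters was not tested.

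By least squares on the 10 genes with an entry in all clusters, cluster 2 held 12.12% of all cells and was the third largest. Over its 1133 entries, 559 had a higher detection share inside than outside, 573 a lower one and 1 an equal one. The median difference was -0.5 percentage points, with a range from -57.1 to 66.6. A difference of at least 10 percentage points was taken as higher or lower, and by this measure 279 entries (24.6%) were higher, 391 (34.5%) lower and 463 within. These percentages are the background for all counts of gene groups below. Of all these entries, 132 were detected in at least 90% of cells on both sides, where detection can hardly differ.

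**Figure D1:**
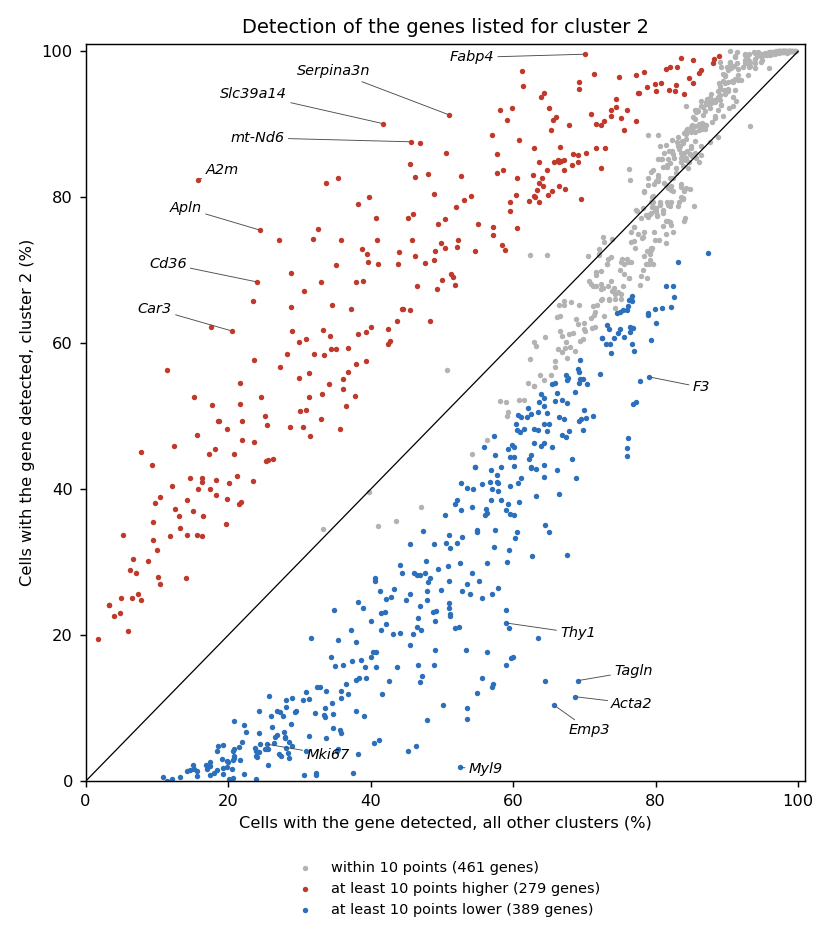
Detection share of the 1129 named genes listed for cluster 2, in all other cells (horizontal axis, %) and in cluster 2 (vertical axis, %); each point is a gene, and colours mark differences of at least 10 percentage points. A2m lies farthest above the line of equal detection (82.4% against 15.8%), and Acta2 (11.6% against 68.7%) and Emp3 (10.4% against 65.8%) lie far below it.

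Clusters 4 and 10 had low detection of most genes, with medians over their own entries of 10.8% and 8.1%, against 65.9% in cluster 2. They formed part of the other cells and thus entered the outside values. The outside share of Serpina3n was 51.0% with them and 54.3% without, while that of A2m was 15.8% with them and 14.3% without, and that of Cd36 24.1% and 19.3%. Leaving them out thus moved the outside value in either direction, depending on the gene. Over the 259 genes that were also listed for both, 80 were higher in cluster 2 against all other cells and 63 against the other cells without clusters 4 and 10, while 89 and 124 were lower. The sign turned for 40 of these genes, none of which had reached 10 points. For A2m the difference was 66.6 points against all other cells and 68.1 without clusters 4 and 10, and for Serpina3n it was 40.3 and 37.0.

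The genes detected far more often in cluster 2 than outside were a mixed group of secreted, membrane and metabolic proteins. Apln, which encodes the peptide hormone apelin, was detected in 75.5% of cluster 2 cells and 24.5% of the others. Slc39a14, a zinc and iron importer that is induced in the acute-phase response, was detected in 90.1% against 41.7%. Gfpt2, an enzyme of hexosamine synthesis, was detected in 82.6% against 35.4%. For Slc39a14 and Gfpt2 the detection share was highest in cluster 2, followed by cluster 6 with 79.0% and 77.0%. For Apln, cluster 6 had 77.8%.

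Other leading genes were shared in the same manner. Ifi207, of the interferon-inducible Ifi200 family, was found in 82.0% of cluster 2 cells, against 33.7% outside, and in clusters 6 and 8 it was at 78.2% and 88.4%. Folh1, a membrane peptidase, was detected in 56.3% of cluster 2 cells, 59.5% of cluster 6 and 51.7% of cluster 8, and in 1.2% to 3.6% of the cells of clusters 0, 1, 3, 5 and 7. Thsd7a, a membrane protein with thrombospondin domains, was at 62.2% in cluster 2 and 60% in cluster 6, against 17.6% outside. Fzd1, a Wnt receptor, was at 74.3% and 75.9% in the same pair of clusters, against 31.9% outside. Each of these genes was thus detected in most cells of cluster 2 and of cluster 6.

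Among the remaining leading genes, Xdh (xanthine dehydrogenase) was detected in 79.1% of cluster 2 cells, and the next highest listed value was 58.3% in cluster 11. Abca1, a transporter that exports cholesterol, was detected in 84.6%, followed by 74.2% in cluster 8. Prg4, the lubricating proteoglycan lubricin, was at 65.8% in cluster 2, and at 76.7% and 67.5% in clusters 8 and 6. Vldlr, a lipoprotein receptor, was at 80.1%, with 76.9% and 73.0% in clusters 8 and 6.

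**Figure D2:**
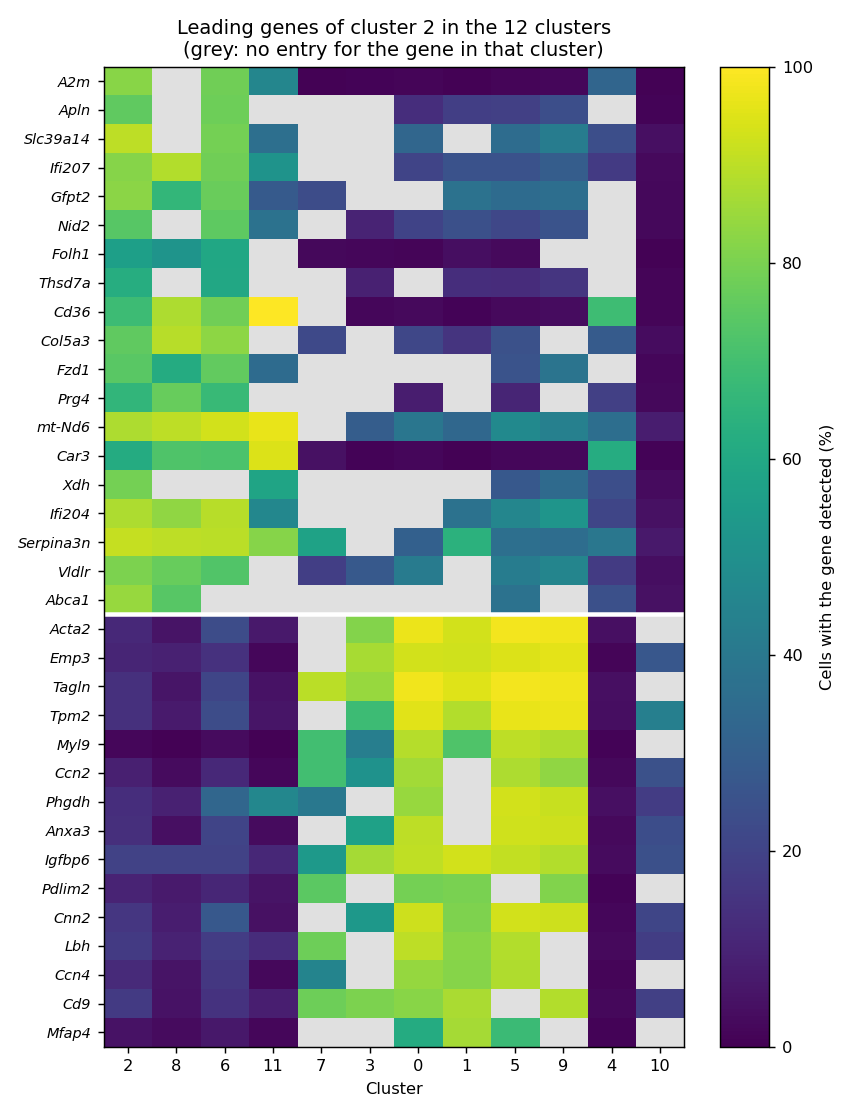
Detection share (colour, %) of 19 of the 20 genes with the largest positive difference and the 15 with the largest negative one in cluster 2 (rows, above and below the white line) in each of the 12 clusters (columns). Bright cells for the upper genes lie in columns 2, 8 and 6, and for part of them in column 11 (Cd36 99.8%, Fzd1 34.9%). For the lower genes they lie in columns 0, 1, 5 and 9. Columns 3 and 7 are also bright for most lower genes listed there, with medians of 74.3% and 69.9%. Grey marks a gene with no entry in that cluster.

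Of the 279 genes with a higher share, 109 (39.1%) had their highest listed value in cluster 2 itself. These include 29 genes with an entry for no other cluster, which had no other listed value to be compared with. The highest value lay in cluster 6 for 76 of them, in cluster 11 for 46 and in cluster 8 for 34. Of the 279, 137 were also listed for cluster 6 and 134 for cluster 8. In 102 of these 137 and 103 of these 134 the detection shares of the pair lay within 10 points of each other.

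The fat-cell genes listed for cluster 2 were detected more often there than outside. All 20 adipocyte genes looked up had an entry for some cluster, and 10 had one for cluster 2. These 10 were higher by at least 10 points, with a median difference of 24.55 points, beside -0.5 over all entries. The other genes, among them Scd1, Lpl and Plin2, did not pass the authors' filter in cluster 2, so the count does not cover them. Fabp4, the fatty acid carrier of fat cells, was detected in 99.6% of cluster 2 cells and 70.1% of the others. Cd36, which takes up fatty acids, was detected in 68.4% against 24.1%. Car3, a carbonic anhydrase abundant in fat, was detected in 61.7% against 20.5%. The lipase gene Pnpla2 was at 67.1% against 30.7% and the acyl-CoA synthetase gene Acsl1 at 50% against 25.2%.

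Several of these genes were detected in as many or more cells of clusters 4, 6, 8 and 11. Cd36 was at 69.0%, 78.2%, 87.7% and 99.8% in these clusters, and Car3 at 62.1%, 71.5%, 72.4% and 94.6%. Cluster 2, with 68.4% and 61.7%, was close to cluster 4 and below the other 3 for both genes. Adipoq, which encodes the fat hormone adiponectin, was detected in 40.1% of cluster 2 cells, 40.5% of cluster 4 and 92.1% of cluster 11. Plin1, the coat protein of lipid droplets, was at 27.8% in cluster 2, and at 29.3%, 45.5%, 50.6% and 99.8% in clusters 4, 6, 8 and 11. Outside clusters 2, 4, 6, 8 and 11, the listed values of Cd36 and Car3 were 4.4% or lower. The higher detection of Cd36 and Car3 was thus shared with clusters 4, 6, 8 and 11. Fabp4 was spread more widely, at 92.6% in cluster 7 and 52.6% to 67.7% in clusters 0, 1, 3, 5 and 9. Without clusters 4 and 10 the difference of Cd36 was 49.1 points and that of Car3 was 45.6. Of the 16 regulators of adipogenesis looked up, 12 had an entry for some cluster and 2 had one for cluster 2, both higher. These 2 were Fkbp5, a glucocorticoid-induced chaperone, at 61.7% against 29.0%, and Klf9, a glucocorticoid-induced transcription factor, at 90.4% against 72.8%. Fkbp5 was at 82.0% in cluster 6 and 78.4% in cluster 8, and Klf9 at 95.4% in cluster 8. Pparg and Cebpa were among the regulators with entries for other clusters only.

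Basement membrane genes were mostly higher. Of the 16 looked up, 10 were listed, 7 were higher and 2 lower, with a median difference of 13.2 points. Nid2 (nidogen 2), which links laminin to collagen IV, was detected in 74.1% of cluster 2 cells and 27.2% of the others, and in 75.0% of cluster 6. Lama4 and Lamc1, the laminin chains alpha 4 and gamma 1, were at 76.4% against 55.1% and 89.9% against 67.9%. Col4a2, a chain of collagen IV, was at 98.8% against 85.2%. The 2 lower genes were Col8a1, a collagen of vessel walls, at 0.3% against 23.9%, and Col4a5 at 2.6% against 20%. Part of these differences was smaller without clusters 4 and 10, where Nid1 went from 11.9 to 2.4 points and Col6a1 from 12.8 to 4.1.

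Of the 8 fibrillar collagen genes, 5 were listed. Col5a3 and Col12a1 (84.0% against 72.4%) were higher, and Col1a1, Col1a2 and Col3a1, the main collagens of connective tissue, were detected in at least 97.7% of cluster 2 cells and 93.9% of the others.

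Of the TGF-beta pathway, which restrains adipogenesis and drives matrix production, 7 of 16 genes were listed, 5 higher and 2 lower, with a median of 17.8 points. All 3 receptor genes were higher. Tgfbr1 was detected in 68.4% of cluster 2 cells against 33.1%, Tgfbr2 in 90.6% against 59.2% and Tgfbr3, the co-receptor betaglycan, in 96.9% against 71.4%. In cluster 6 the same genes were at 70.5%, 89.3% and 96.9%. In cluster 8 Tgfbr2 and Tgfbr3 were at 88.8% and 94.8%, and Tgfbr1 had no entry. The higher detection of the receptor genes was thus not particular to cluster 2. The ligand gene Tgfb2, listed only for cluster 2, was at 28.0% against 10.2%. The lower genes were Ltbp2, a latent TGF-beta binding protein family member of microfibrils, at 6.6% against 35.9%, and Id1, a target of BMP signals, at 48.1% against 63.5%. The related target Id2 was at 69.1% against 51.6%, so the 2 targets differed in direction.

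Protease inhibitors and acute-phase genes did not share a direction. Of the 18 looked up, 7 were listed, 3 higher and 3 lower, with a median of -0.2 points. Beside A2m and Serpina3n, Saa3 (serum amyloid A3) was higher, at 70.8% against 41.1%. The lower genes were Timp3, an inhibitor of metalloproteinases bound to the matrix, at 14.1% against 55.6%, Timp2 at 60.4% against 79.3%, and Serpinf1, which encodes the anti-angiogenic factor PEDF, at 67.9% against 82.4%. Hp (haptoglobin) was at 39.6% against 39.8%. Of 12 chemokine and cytokine genes, 3 were listed and 1 was lower, Ccl8, at 7.1% against 35.7%.

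Contractile genes were detected in far fewer cells of cluster 2 than outside. All 12 genes looked up were listed, and 11 were lower and none higher, with a median of -33.45 points. Acta2, the smooth muscle actin of activated fibroblasts, was detected in 11.6% of cluster 2 cells and 68.7% of the others. Tagln (transgelin), which binds actin filaments, was at 13.8% against 69.1%. Myl9, a myosin light chain, was at 1.9% against 52.5%, and Tpm2, a tropomyosin, at 13.8% against 64.5%. Acta2, Tagln, Myl9 and Tpm2 were thus found in few cells of cluster 2. Others of the lower genes were found in most of its cells, as Tagln2 was at 65.8% against 76.7%, Lmna at 64.9% against 80.9% and Flna at 62% against 75%.

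The detection share of Acta2 was 93.1% to 98.1% in clusters 0, 1, 5 and 9, 81.4% in cluster 3, and 23.2%, 6.7% and 5.4% in clusters 6, 11 and 8. Low detection of Acta2 was thus shared by clusters 2, 6, 8 and 11, and by cluster 4, where it was at 4.2%. The exception in the list was Vim, the intermediate filament protein of all mesenchymal cells, at 99.0% against 93.9%. The other lower genes with large differences included Emp3, a small membrane protein, at 10.4% against 65.8%, Anxa3 (annexin A3) at 13.3% against 57.2%, the tetraspanin gene Cd9 at 16.9% against 59.7% and Phgdh, the first enzyme of serine synthesis, at 12.9% against 57.1%.

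**Figure D3:**
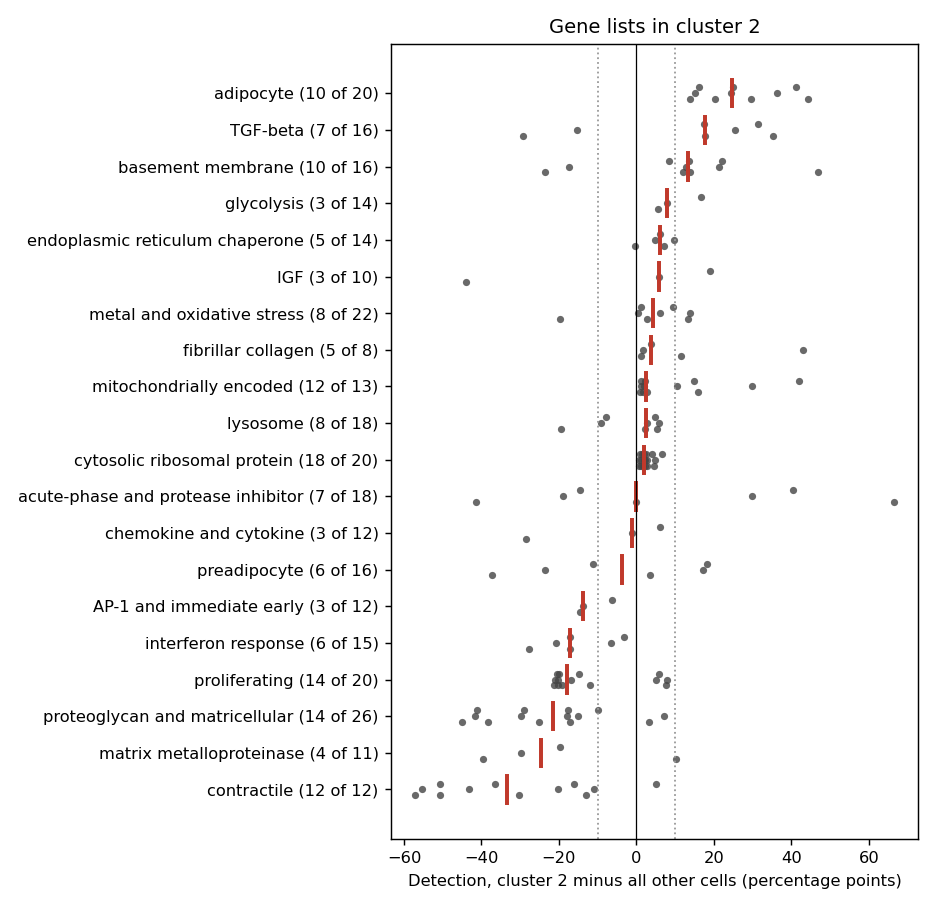
Difference of detection, cluster 2 minus all other cells (horizontal axis, percentage points), for the listed members of the 20 gene lists with at least 3 entries, without the groups put together after the values were seen; points are genes, red bars are list medians, dotted lines mark 10 points, and brackets give listed and total genes. The medians of the lists drawn run from -33.45 for contractile genes to 24.55 for adipocyte genes.

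Matricellular proteins and proteoglycans, the part of the matrix that carries signals, were mostly lower. Of 26 genes, 14 were listed, 11 lower and none higher, with a median of -21.5 points. Ccn2 (connective tissue growth factor) was at 8.6% against 53.5%, Ccn5 at 21.0% against 59.4% and Ccn3 at 0.9% against 30.6%. These are 3 members of 1 family of secreted proteins. The microfibril gene Mfap4 was at 4.8% against 46.4% and the proteoglycan gene Prelp at 4.1% against 45.2%. Bgn (biglycan) and Sparc were detected in 99.5% and 99.6% of cluster 2 cells, and the difference of Sparc was 3.3 points against all other cells and -0.2 without clusters 4 and 10.

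Of 11 matrix metalloproteinase genes, 4 were listed. Mmp23, Mmp11 and Adamts5 were lower (8.4% against 47.9%, 11.9% against 41.6% and 40.9% against 60.7%). Mmp2 (gelatinase A) was higher, at 79.8% against 69.6%. Of 10 genes of the insulin-like growth factor system, 3 were listed. Igfbp6 was lower, at 19.6% against 63.5%, and Igfbp4 higher, at 84.9% against 65.8%. These 2 binding proteins thus had opposite directions.

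Of 16 preadipocyte genes, 6 were listed, 2 higher and 3 lower, with a median of -3.85 points. The surface protein gene Thy1 was at 21.7% against 59.0% and the receptor gene Pdgfrb at 54.4% against 65.5%. Pdgfra, the receptor that marks fibroblasts of fat, was at 79.5% against 62.3%. Cd24a, a surface glycoprotein found on early fat progenitors, was at 23.1% against 4.9%, with 29.6% in cluster 6. The 2 PDGF receptor genes therefore differed in direction within the cluster.

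Genes of cell division were lower or close to equal. Of 20, 14 were listed, 10 lower and none higher, with a median of -18 points. Top2a (topoisomerase II alpha) was detected in 19.7% of cluster 2 cells against 31.7%, Birc5 (survivin) in 6.1% against 26.6% and Cenpf, a kinetochore protein, in 4.7% against 21.5%. In clusters 5, 6 and 9 Mki67 was at 78.6%, 92.0% and 91.2%. In clusters 0, 1, 3, 7 and 8 Mki67 was at 5.4%, 3.2%, 2.3%, 3.0% and 6.9%. Cluster 2 thus lay among the clusters with little Mki67. Top2a was at 90.7%, 95.3% and 78.9% in clusters 5, 6 and 9 and at 26.1% in cluster 11. In clusters 0, 1, 3, 7 and 8 it was at 7% to 17.2%, below the 19.7% of cluster 2.

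The cluster most like cluster 2 was cluster 8, with a median absolute difference of 2.3 points over 694 genes listed for both, followed by cluster 6 with 7.4 over 689 and cluster 7 with 8.1 over 289. These shared genes made up 61.5%, 61.0% and 25.6% of the entries of cluster 2, and 61.7%, 48.8% and 53.8% of those of the other cluster. By the mean of the absolute differences cluster 8 was again first (4.37) and cluster 6 again second (11.67), and cluster 11 (16.63 over 769 genes) came before cluster 7 (17.79). These are genes with an entry for both clusters and not all genes.

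Against cluster 8, 59 of the 694 genes (8.5%) were higher in cluster 2 and 22 (3.17%) lower. Tmem45a, a membrane protein, was detected in 83.7% of cluster 2 cells and 51.4% of cluster 8. Vasn, a secreted binder of TGF-beta, was at 69.5% and 38.8%. Cxcl12, a chemokine of stromal cells, was at 75.9% and 48.1%, and Col12a1 at 84.0% and 57.0%. Other matrix genes had the opposite direction, as Col5a3 was at 75.6% and 89.4%, Col6a2 at 81.2% and 93.2%, and Prg4 at 65.8% and 76.7%.

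Among the other genes detected in fewer cells of cluster 2, Ctsc (cathepsin C) was detected in 36.3% of cluster 2 cells and 71.0% of cluster 8. Scara5, a scavenger receptor that takes up ferritin, was at 38.1% and 65.7%. Plin1 was at 27.8% and 50.6%, and Cd36 at 68.4% and 87.7%. Fgf10, a growth factor that promotes adipogenesis, was at 45.5% and 62.5%, and Fkbp5 at 61.7% and 78.4%. Of the contractile genes, Acta2 was at 11.6% in cluster 2 and 5.4% in cluster 8, and Tpm1 at 45.7% and 36.5%.

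Against cluster 6, 4 of the 689 genes (0.581%) were higher in cluster 2 and 269 (39%) lower. The largest of these differences were genes of cell division. Mki67 was detected in 5.1% of cluster 2 cells and 92.0% of cluster 6, Pclaf, a PCNA-binding factor of DNA replication, in 5.2% and 91.6%, and Tpx2, a spindle protein, in 4.6% and 85.2%. The 4 higher genes were Ahnak2 (38.2% and 19.1%), Abi3bp (35.0% and 22.5%), Slc39a14 (90.1% and 79.0%) and Aebp1 (92.5% and 81.7%). Abi3bp and Aebp1 encode secreted matrix proteins. Over the 689 shared genes the median difference of cluster 2 from cluster 6 was -7 points. Detection was thus lower for most of these genes and not only for genes of division. The shared genes had passed the authors' filter in both clusters, so this median does not describe detection in general.

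**Figure D4:**
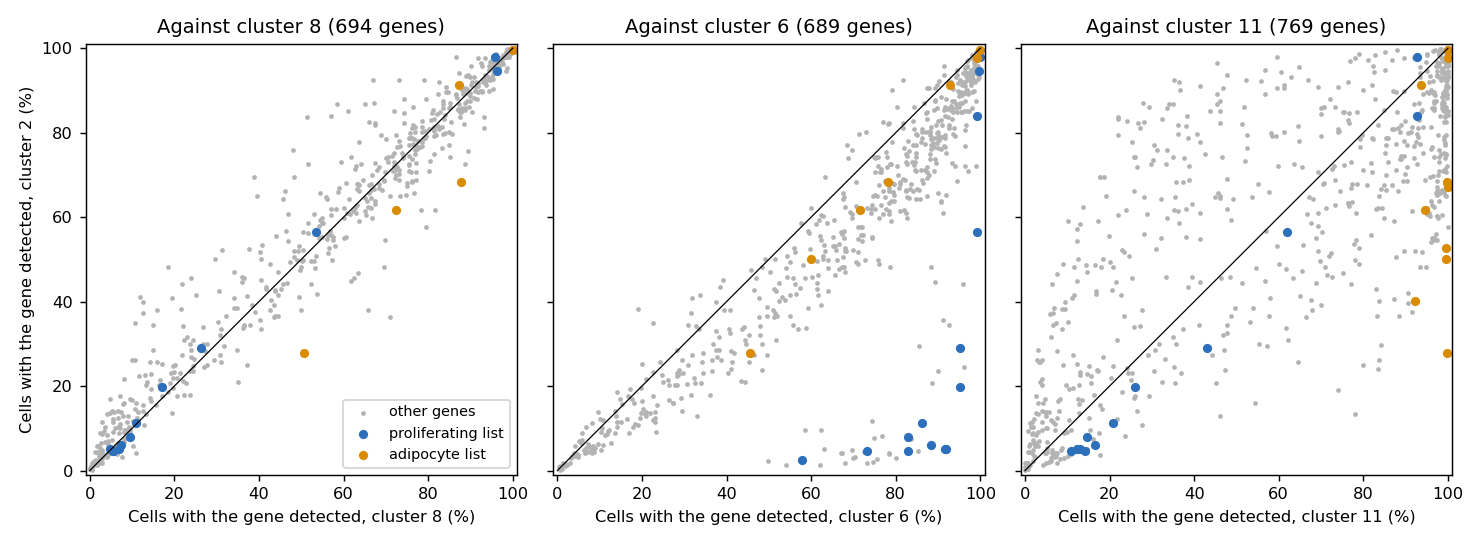
Detection share in cluster 2 (vertical axes, %) against clusters 8, 6 and 11 (horizontal axes, %), over the 694, 689 and 769 genes listed for both; each point is a gene, with proliferating (blue) and adipocyte (orange) lists coloured. Genes of division lie far below the line of equal detection against cluster 6 (Mki67, 5.1% and 92.0%), adipocyte genes lie below it against cluster 11 (Plin1, 27.8% and 99.8%), and most genes lie near it against cluster 8.

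Against cluster 11, 193 of the 769 genes (25.1%) were higher in cluster 2 and 225 (29.3%) lower. Next to Plin1 and Adipoq, the lower genes included Me1 (malic enzyme, which supplies NADPH for fat synthesis), detected in 13.3% of cluster 2 cells and 78.1% of cluster 11. The mitochondrial enzyme gene Sdhb was at 48.3% and 94.8%, and Agpat2, an enzyme of triglyceride synthesis, at 52.8% and 99.5%. The higher genes included fibroblast and secreted factors. Pdgfra was detected in 79.5% of cluster 2 cells and 21.9% of cluster 11, Fst (follistatin, which binds activin) in 82.8% and 24.1%, and Csf1, a growth factor for macrophages, in 82.4% and 26.8%. Relative to cluster 11, cluster 2 had these fibroblast genes in more cells and the listed fat-cell genes in fewer or equal numbers.

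Against cluster 7, 40 of the 289 genes (13.8%) were higher in cluster 2 and 99 (34.3%) lower. A2m was at 82.4% and 0.4%, Vldlr at 80.1% and 18.5%, and Cthrc1, a secreted protein of matrix repair, at 74.2% and 14.8%. In the other direction stood Tagln (13.8% and 89.5%), C4b (18.7% and 84.7%) and Ogn, a small proteoglycan, (6.6% and 69.5%). Low A2m and high contractile genes thus set cluster 7 apart from cluster 2, although the median over shared genes was close.

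Genes of the cytosolic ribosome were near equal, and some mitochondrially encoded genes were higher. Of 20 cytosolic ribosomal protein genes, 18 were listed, and all were detected in at least 99.6% of cluster 2 cells and at least 93.1% of the others. Of the 13 mitochondrially encoded genes, 12 were listed, with a median of 2.45 points and 5 higher. The largest difference was that of mt-Nd6, a subunit of respiratory complex I, at 87.6% against 45.7%, followed by mt-Atp8 at 94.3% against 64.4%. Without clusters 4 and 10 the differences of mt-Nd6, mt-Atp8 and mt-Nd5 were 39.0, 25.5 and 4.7 points, against 41.9, 29.9 and 10.4 with them. The share of mitochondrial reads per cell was not given, and its part in these values was not tested.

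Of 22 genes of metal and oxidative stress, 8 were listed. Mt2, a metallothionein that binds zinc and is induced by glucocorticoids, was at 100% against 90.5%. The mitochondrial superoxide dismutase gene Sod2 was at 89.2% against 75.5%, and Gpx1 at 49.7% against 69.5%. Of 14 chaperone genes of the endoplasmic reticulum, 5 were listed and none reached 10 points. Of 18 lysosome genes, 8 were listed and 1 was lower, Ctsk (cathepsin K), at 41.6% against 61.1%. Of 16 cholesterol genes, the 2 listed were Abca1 and Idi1 (53.7% against 36.1%), both higher. Of 14 glycolysis genes, 3 were listed and 1 was higher, Pfkl, at 85.8% against 69.1%.

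Of 12 AP-1 and immediate early genes, 3 were listed, with 2 lower. Fos was at 55.1% against 69.8%, Ier3 at 45.5% against 59.3% and Jund at 74.2% against 80.5%. Of 15 interferon response genes, 6 were listed, with 4 lower and a median of -17.15 points. Bst2, a restriction factor, was at 31.7% against 59.4%, and Isg15 at 3.4% against 24.1%. The interferon-inducible Ifi207 and Ifi204 had the opposite direction, as Ifi204 was at 87.5% against 47.0%. Of 16 imprinted genes looked up, 0 had an entry for cluster 2.

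A set of 37 genes had an entry for cluster 2 and for no other cluster, and 29 of them were higher and 4 lower. The set was chosen by passing the authors' filter in cluster 2 alone, so these counts are no separate evidence about the cluster. Slc10a6, a transporter of sulfated steroids, was detected in 43.3% of cluster 2 cells and 9.3% of the others. Ackr3, a scavenging receptor for Cxcl12, was at 40.5% against 12.2%. Cacna1d, a calcium channel subunit, was at 33.7% against 5.3%. These 3 genes were found in a minority of the cells of the cluster. Others of the set were found in most of its cells, as Fam117b was at 51.7% against 21.7% and Tmem106b at 71.4% against 48.9%.

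Further genes of this set encode signals and transcription factors. Tnfsf11 (RANKL, which drives osteoclast formation) was at 25.1% against 5.0%. Tbx18, a transcription factor of mesenchymal cells, was at 39.2% against 18.3%. Sphk1, which makes sphingosine 1-phosphate, was at 33.8% against 15.7%, and Nt5e (CD73, which makes adenosine) at 24.2% against 3.3%. Outside detection was thus low for most of them but not 0, and the table does not say in which other clusters it arose.

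The knocked-out gene Hmgn1 (chromosome 16, 96120618 to 96127729, minus strand) was detected in 92.0% of cluster 2 cells and 85.6% of the others, and Hmgn2 had no entry for the cluster. Since WT and DKO cells are pooled, these values do not check the genotype labels. Markers of other cell types were looked up as well. Of 11 immune and 7 glial genes, 0 had an entry in any cluster. Of 9 endothelial, 8 mural and 7 mesothelial genes 1 each had an entry in the table, and 0 of these were for cluster 2.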

How the data were processed

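Single-cell RNA was captured from 8 cultures with a 3′ droplet chemistry. The submitters' processing notes name Cell Ranger 6.0.0 and mm10. Per the study's methods, the authors aggregated the samples at equal read depth, removed cells with under 500 genes or over 10% mitochondrial reads, log-normalized, left out cells of immune, glial or endothelial type, and formed clusters from 10 principal components at resolution 0.6. No removal of doublets is described in the sources used here. The authors' marker test kept genes found in a fraction of at least 0.1 of cells with a log fold change of at least 0.25.

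The deposited table gives per gene and cluster the fraction of cells with the gene inside the cluster and outside it, pooled over all samples and rounded, and these 2 columns were used as percentages. Its other columns hold the authors' own log2 fold changes, p-values and adjusted p-values, and were not used. No column belongs to a single sample, and no cell barcodes were analysed here.

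Shares of cells per cluster were solved by least squares from genes listed in all 12 clusters (numpy 2.4.6, pandas 2.3.3, scipy 1.17.1) and checked on simulated data. They gave detection in clusters with no entry. No test was run. Named genes were A2m and Serpina3n, the 20 largest positive and 15 largest negative differences, the study's markers, Hmgn1, Hmgn2 and listed members of 31 gene lists; genes outside this rule, among them those named against single clusters or listed only for cluster 2, were chosen after their values were seen. Members and lists were chosen with earlier results of these data known. A gene is not reported here, and neither is the list that turns on it. Gene positions are from GENCODE on mm10 and promoters from RefSeq.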

Additional observations from a re-analysis of the deposited data

How the results depend on the processing

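With a minimum difference of 20 percentage points 160 genes were higher and 172 lower in cluster 2, and with a ratio of at least 1.5 the counts were 156 and 252, against 279 and 391 at 10 points. With 5 points they were 361 and 483, with an odds ratio of at least 2 they were 414 and 292, and with detection of at least 25% on one side 272 and 341. The odds ratio thus put more genes on the higher side and the difference more on the lower side. By the mean absolute difference, cluster 11 replaced cluster 7 at rank 3 among the most similar clusters. The share of cells was 12.12% also from 2687 genes listed in at least 2 clusters. All 20 gene lists had the same sign of their median by the odds ratio. Both measures have the same sign for any single gene, so this is hardly a separate check. None of the higher genes peaked in clusters 4 or 10. Leaving these clusters out thus could not change the count of 109 genes that peaked in cluster 2. The comparison that leaves clusters 4 and 10 out of the other cells was chosen after seeing the data. No paired analysis was possible because values are pooled over all samples, and for the same reason no replicate could be left out. Detection shares saturate near 100%, depth and the number of cells are unknown, and sampling error could not be given.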

Other observations

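The following 4 gene groups were put together after the values had been seen, so their counts are descriptions only. Of 22 cytokine receptor genes, 16 had an entry for some cluster and 8 had one for cluster 2. All 8 were detected in more of its cells, with a median difference of 25.3 points, beside -0.5 over all entries. The others, among them Ifngr1 and Il4ra, did not pass the authors' filter in cluster 2. Il1r1, the receptor of interleukin 1, was detected in 92.0% of cluster 2 cells and 58.1% of the others, and in 93.0% of cluster 6. Receptors of the interleukin 6 family were among them. Lifr was at 52.6% against 24.6%, Osmr at 91.0% against 66.0%, and the shared signalling chain Il6st at 94.3% against 77.6%. For Il6st the difference was 16.7 points against all other cells and 7.4 without clusters 4 and 10. Il17ra was at 64.7% against 37.2% and Il13ra1 at 46.5% against 23.6%.

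Of 16 genes that respond to low oxygen, 10 were listed, 8 higher and 1 lower. Ndrg1 was detected in 48.3% of cluster 2 cells and 19.9% of the others, and the lipid droplet gene Hilpda in 60.6% against 31.0%. Epas1, which encodes the factor HIF-2 alpha, was at 49.4% against 18.6%, and Vegfa, a growth factor for vessels, at 82.7% against 64.0%. Adm (adrenomedullin) was lower, at 39.8% against 57.9%. The oxygen in the cultures was not measured.

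Of 10 genes of the interferon-inducible Ifi200 family, whose shared sequence leaves the split of reads between them uncertain, 4 were listed and all 4 were higher, with a median of 34.5 points. Beside Ifi207 and Ifi204, Ifi205 was at 39.0% against 10.5% and Ifi211 at 48.6% against 28.7%. H2-Ab1, a chain of MHC class II, was detected in 47.5% of cluster 2 cells, 45.9% of cluster 6 and 12.9% of the cells of the other clusters, or 15.7% of all cells outside cluster 2. It was the 1 listed gene of 7 of that class.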
